A study of Mus musculus with 12 samples.

Results

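The genes described here are the ligands, receptors, Smad proteins and antagonists of bone morphogenetic protein (BMP) and transforming growth factor beta (TGF-beta) signalling, taken as a fixed list of 40 mouse gene symbols out of 54232 genes in the series' count table. Of the 40, 32 passed the filter on low counts and were tested among 14985 genes, and 8 did not pass. The list holds 10 ligands, 3 latent TGF-beta binding proteins, 6 type I receptors, 5 type II receptors and co-receptors, 6 receptor-regulated or common Smads, 4 inhibitory Smads and Smad co-repressors, and 6 antagonists. In this pathway a dimeric ligand joins type II and type I serine/threonine kinase receptors, and the type I receptor phosphorylates receptor-regulated Smads, which bind Smad4 and act on genes in the nucleus. Smad1, Smad5 and Smad9 carry BMP signals, and Smad2 and Smad3 carry TGF-beta and activin signals. Secreted antagonists hold ligands away from receptors, and Smad6, Smad7, Ski and Skil damp the signal inside the cell. In the retina, BMPs help to set dorsal identity and ganglion cell number in development, and TGF-beta ligands are made by Müller glia, among other cells.

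RNA was measured in 12 pools of cells from the retinas of wild-type adult male mice, all with an optic nerve crush, which injures the axons of retinal ganglion cells. The vitreous had received AAV2 carrying Olig1, a basic helix-loop-helix (bHLH) transcription factor of the oligodendrocyte lineage, or AAV2 carrying green fluorescent protein (GFP) as the control. Cells were taken with CD90.2 beads 7 or 14 days after the crush, and 10 to 20 fluorescent cells were picked into each pool. The 4 groups are AAV-Olig1 at day 7 (Olig1 day 7), AAV-GFP at day 7 (GFP day 7), AAV-Olig1 at day 14 (Olig1 day 14) and AAV-GFP at day 14 (GFP day 14), with 3 libraries each. The labels state 14 days for the virus in every library, whichever the day after the crush. The sources used here give neither the promoter that drives the transgenes nor the number of mice per pool, and p-values here speak only for the spread among pools, part of which may be technical.

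Libraries held 12.5 to 27.6 times 1000000 counts, and levels are given as counts per 1000000 of the library total (CPM). A count of 0 allowed a level of up to 0.109 to 0.239 CPM, depending on the library. Olig1 itself had 1029, 249 and 723 CPM in Olig1 day 7 libraries, against 0.320, 0 and 0.351 CPM in GFP day 7 libraries. At day 14 it had 56.4, 520 and 120 CPM in Olig1 libraries, against 0, 0.0362 and 0.251 CPM in GFP libraries. The levels of the transgene's gene thus follow the labels in all 12 libraries. The labelled cell type did not follow its markers in all of them: 16 ganglion cell markers summed to 3260 to 4961 CPM in Olig1 day 7 libraries and to 272 to 356 CPM in GFP day 7 libraries. At day 14 the sums were 278, 3850 and 247 CPM in Olig1 libraries and 424, 379 and 220 CPM in GFP libraries, with Slc17a6, Pou4f1, Pou4f2 and Pou4f3 at 0 in all 3 GFP libraries. The 15 rod markers summed to 655 to 1393 CPM in Olig1 day 7 libraries and to 13320 to 63480 CPM in GFP day 7 libraries, and to 1224 to 13550 CPM in Olig1 day 14 libraries and 4691 to 57430 CPM in GFP day 14 libraries, with no rod marker at 0 throughout a group. The 14 Müller glia markers other than Apoe summed to 7067 to 12790 CPM in Olig1 day 7 libraries and to 26280 to 55710 CPM in GFP day 7 libraries, and at day 14 to 17810 to 34500 CPM in Olig1 libraries and to 16770 to 30520 CPM in GFP libraries. With Apoe, the 15 markers summed to 47570 to 128500 CPM in Olig1 day 7 libraries and to 69940 to 148300 CPM in GFP day 7 libraries, which overlapped. At day 14 the sums with Apoe were 73670 to 133500 CPM in Olig1 libraries and 59640 to 128900 CPM in GFP libraries. The 12 microglial markers summed to over 900 CPM in 4 libraries. The sum was 939 CPM in replicate 3 of Olig1 day 7, 1270 CPM in replicate 3 of GFP day 7, and 5097 and 6892 CPM in replicates 2 and 3 of GFP day 14. In pools of this kind, fewer cells of a type and less RNA per cell cannot be told apart.

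By their values, replicates 1 and 2 of Olig1 day 7 did not look independent. Of the 3128 genes with at least 50 CPM in replicate 1, 0 were below 0.1 times that level in replicate 2. In the other 131 ordered pairs of libraries, 1.22% to 33.5% of such genes were. The ratio of replicate 2 to replicate 1 lay between 0.15 and 0.35 for 60.8% of these genes, against 17.9% for replicate 3 to replicate 1. Among the 18 BMP and TGF-beta genes with at least 5 CPM in replicate 1, 14 had a ratio in that range and the median was 0.241, with the lowest for Bmp2 (0.133) and the highest for Bmpr2 (7.27). Every such gene of replicate 1 was thus also present in replicate 2, and 60.8% of them were within that window of ratios. Beside many of the values below that rest on Olig1 day 7, the value without replicate 2 or with replicates 1 and 2 summed into 1 library is therefore given, and edgeR called 0 of the 40 genes in either setting. The DESeq2 Wald test was run on all 12 libraries only, with replicates 1 and 2 as separate libraries, so its calls below were not repeated in these settings.

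**Figure D1:**
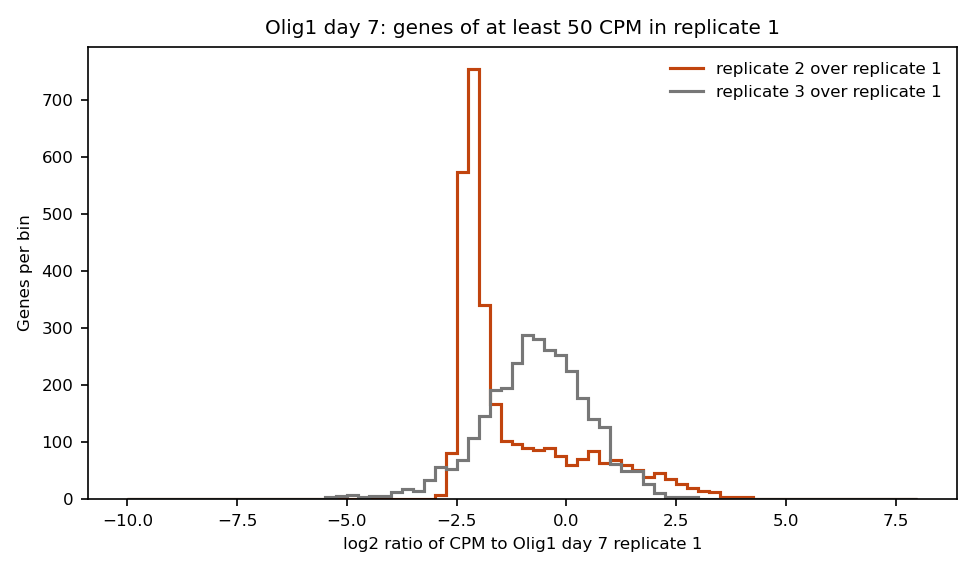
Histogram of the log2 ratio of CPM in Olig1 day 7 replicate 2 (red) and replicate 3 (grey) to replicate 1, over the 3128 genes of at least 50 CPM in replicate 1, with genes per bin on the y axis. The ratios of replicate 2 pile up in a narrow peak with no tail to its left and a long tail to its right, while those of replicate 3 spread broadly.

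The promoters of 3 of the genes that the comparisons turn on are shown first: Nbl1 and Tgfb2, which had the smallest p-values at day 7, and Bmp6, which had no count in any GFP library. Each runs from 250 bases before to 50 bases after the RefSeq transcription start (GRCm38.p6, 5′ to 3′ on the gene's strand). Capitals mark the E-box, CANNTG, the hexamer that bHLH proteins bind, which was searched on both strands together with CAGAC, the core that Smad proteins bind. The windows are chr4:139092921-139093220 on the minus strand for Nbl1, chr1:186705940-186706239 on the minus strand for Tgfb2 and chr13:38345466-38345765 on the plus strand for Bmp6, and each covers the promoter and the first bases of the transcript.
Nbl1: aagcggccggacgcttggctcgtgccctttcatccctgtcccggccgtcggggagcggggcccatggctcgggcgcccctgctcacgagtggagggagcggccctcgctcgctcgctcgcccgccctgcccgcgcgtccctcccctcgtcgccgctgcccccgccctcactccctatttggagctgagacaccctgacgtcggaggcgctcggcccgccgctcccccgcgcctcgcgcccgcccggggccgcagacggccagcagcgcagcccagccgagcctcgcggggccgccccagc
Tgfb2: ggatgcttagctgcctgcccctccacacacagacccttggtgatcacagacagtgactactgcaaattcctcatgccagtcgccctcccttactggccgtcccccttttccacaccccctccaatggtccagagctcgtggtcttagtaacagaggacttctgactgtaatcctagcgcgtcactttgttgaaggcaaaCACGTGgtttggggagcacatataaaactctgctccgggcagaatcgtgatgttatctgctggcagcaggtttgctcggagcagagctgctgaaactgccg
Bmp6: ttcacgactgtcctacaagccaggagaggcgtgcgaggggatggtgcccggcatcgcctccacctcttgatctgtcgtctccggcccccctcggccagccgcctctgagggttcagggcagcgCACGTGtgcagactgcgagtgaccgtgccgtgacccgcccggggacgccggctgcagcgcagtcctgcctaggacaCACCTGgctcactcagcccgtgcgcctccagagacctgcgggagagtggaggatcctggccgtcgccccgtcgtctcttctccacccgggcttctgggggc
The Nbl1 window held 0 E-boxes and 1 CAGAC, the Tgfb2 window held 1 E-box and 2 copies of CAGAC, and the Bmp6 window held 2 E-boxes and 1 CAGAC, and no CAGAC overlapped an E-box in them. RefSeq promoters were found for 28 of the 40 genes (36 promoters), and 19 of the 36 (52.8%) held an E-box. Over all 32851 promoters in the table the share was 72.3%, and 49.6% held CAGAC. A match describes the letters of the window and nothing about binding.

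Over the 40 genes, 132 of 480 library values (27.5%) were 0. A count in every library was found for 13 genes, 6 exceeded 100 CPM in at least 1 library, 8 never exceeded 10 CPM, and Nog and Acvrl1 had no count anywhere. Per kilobase of exon (kb), the mean level over the 12 libraries was highest for Nbl1 (47.3 CPM per kb), followed by Tgfb2 (23.4), Bambi (8.39), Bmpr1a (6.21) and Tgfbr1 (5.21). This order pools the groups: Bambi averaged 4.25 CPM per kb without GFP day 7 replicate 2, below Bmpr1a (5.86) and Tgfbr1 (5.25). In Olig1 day 7 libraries Tgfb2 and Nbl1 were at 11.8 and 11.2 CPM per kb. The number of the 40 genes with a count ran from 18 in GFP day 14 replicate 1, the library with the fewest genes detected (10129), to 32 in 5 libraries. Summed over the 40 genes, levels were 531, 299 and 464 CPM in Olig1 day 7 libraries and 772, 1404 and 929 CPM in GFP day 7 libraries. At day 14 the sums were 542, 621 and 627 CPM in Olig1 libraries and 569, 592 and 513 CPM in GFP libraries.

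**Figure D2:**
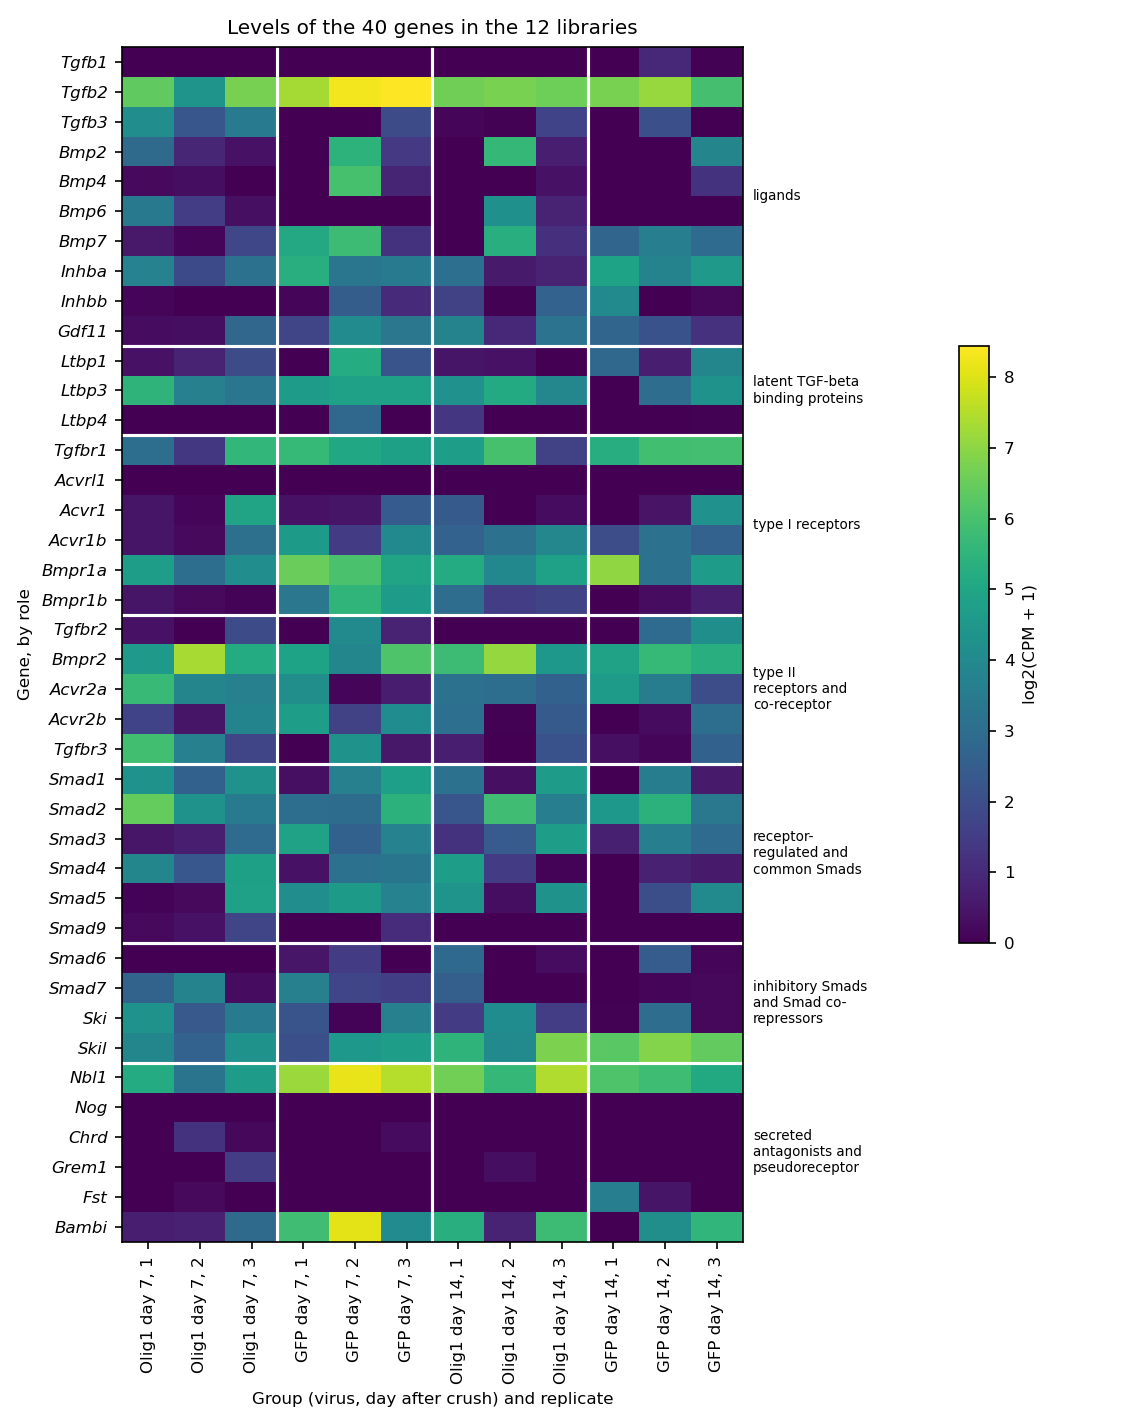
Heat map of log2(CPM + 1) for the 40 genes (rows, by role) in the 12 libraries (columns, by group and replicate). Tgfb2 and Nbl1 are high in most libraries (Nbl1 is lower, at 8.54 CPM, in Olig1 day 7 replicate 2), Bambi in some, and Nog and Acvrl1 are at 0 throughout.

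The first question was whether Olig1 changed the expression of the pathway at either day. At day 7 the ligand Tgfb2, the BMP receptors Bmpr1a and Bmpr1b, the antagonist Nbl1 and the pseudoreceptor Bambi were lower in every Olig1 library than in every GFP library, and the ligands Tgfb3 and Bmp6 were higher. At day 14 Bmpr1b was higher in every Olig1 library, Ltbp1 and the activin chain Inhba were lower, and Tgfb2, Nbl1 and Bambi overlapped between the viruses. None of these differences passed the adjusted threshold of the edgeR test, and some passed that of DESeq2. In the edgeR quasi-likelihood fit of all 12 libraries, with Benjamini-Hochberg adjustment over 14985 genes, 0 of the 32 tested genes were called at day 7 at an adjusted p of 0.05, where 0.227% of all genes were called. At day 14, 0 were called (0.04% of all genes), and over the mean of both days 0 (0.654% of all genes). At an unadjusted p under 0.05, 6 of the 32 differed at day 7, 1 higher and 5 lower with Olig1, against 13.9% of all genes tested (8.95% higher, 5.0% lower). At day 14 it was 2 of the 32, 1 in each direction (10.4% of all genes, 5.57% higher and 4.86% lower), and over both days 7 of the 32, 1 higher and 6 lower (14.9% of all genes, 8.5% higher and 6.38% lower). These counts take Olig1 day 7 replicates 1 and 2 as separate libraries. Without replicate 2, 4 of the listed genes were under that threshold at day 7 and 4 over both days. With replicates 1 and 2 summed it was also 4 and 4. The share of all genes in these 2 settings was not computed. The DESeq2 Wald test called 4, 2 and 3 of the 32 genes at day 7, at day 14 and over both days, where it called 6.73%, 5.38% and 8.22% of all genes with an adjusted p. All 3 libraries of one virus lay above all 3 of the other for 7 of the 32 genes at day 7, 2 higher and 5 lower with Olig1 (18.4% of all genes, 9.4% higher and 9.01% lower), and for 3 at day 14, 1 higher and 2 lower (11.9% of all genes, 7.78% higher and 4.12% lower). Whether the counts lower with Olig1 at day 7 exceed those of other gene groups was not tested. The median log2 fold change of the 32 was -1.33 at day 7, with 21 negative, against -0.03 and 50.7% negative over all genes tested. It was -0.43 without GFP day 7 replicate 2 and -2.51 without Olig1 day 7 replicate 3, which leaves replicates 1 and 2 in that group. At day 14 the median was 0.46, with 13 negative, against 0.09 and 46.1% negative over all genes, and it was -0.06 without Olig1 day 14 replicate 2 and 0.92 without GFP day 14 replicate 3. Without the 4 libraries rich in microglial markers, the medians were -2.43 at day 7 and 3.27 at day 14, against 0.0 and 1.53 over all genes in that fit. That fit leaves GFP day 14 with 1 library, and Olig1 day 7 with replicates 1 and 2, which did not look independent.

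**Figure D3:**
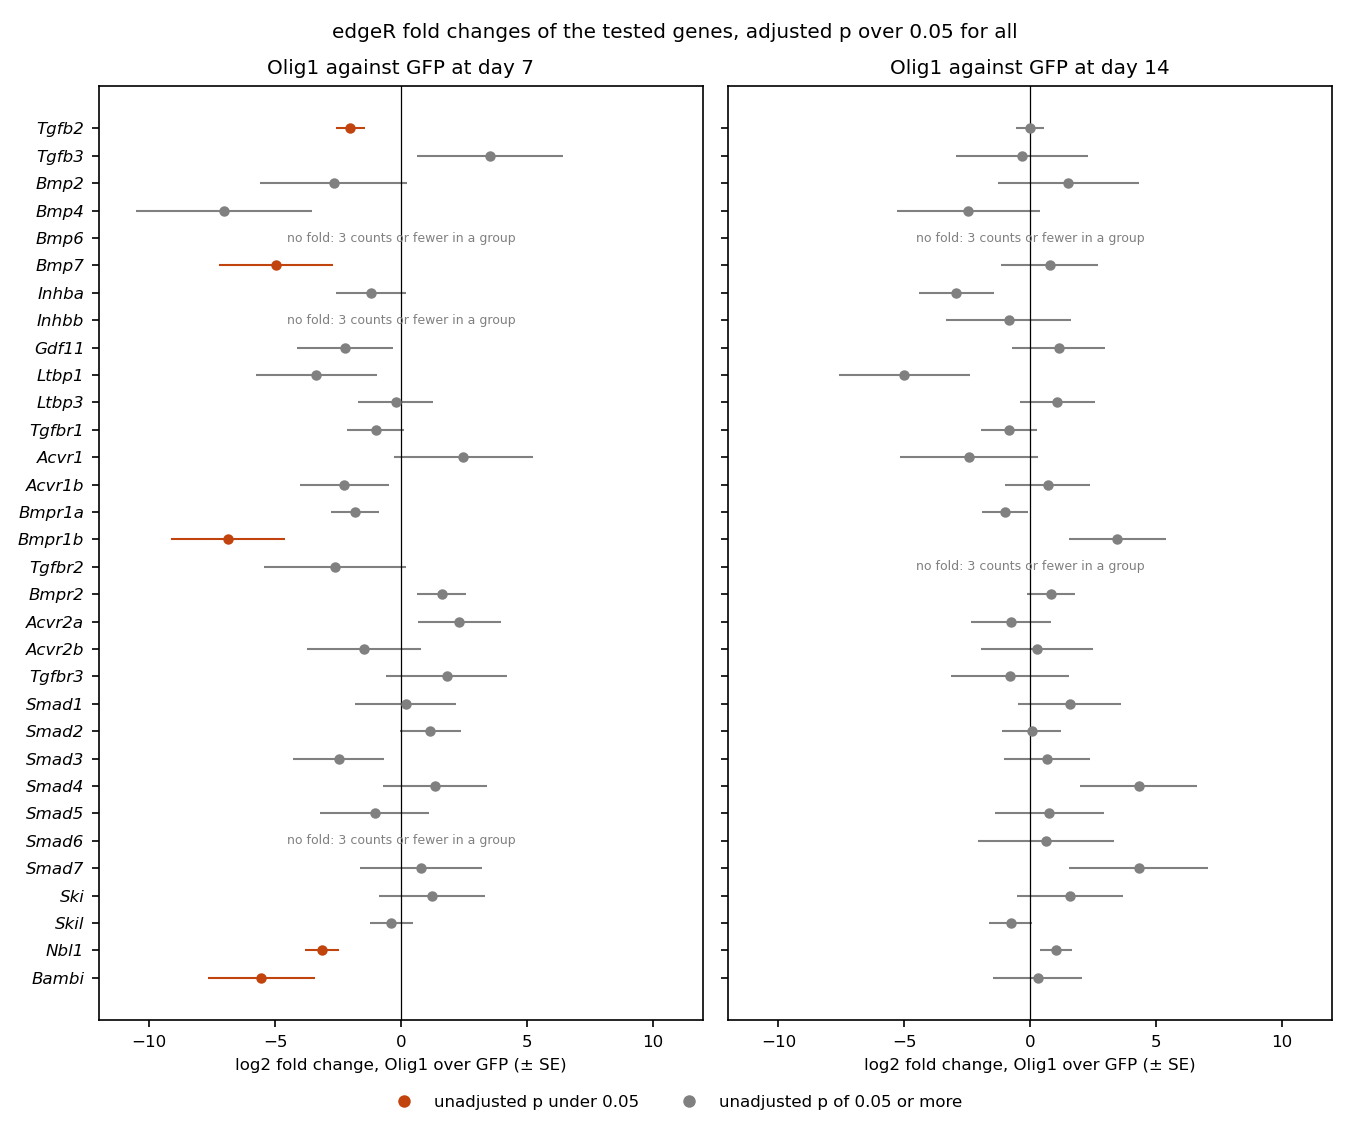
log2 fold change of Olig1 over GFP ± SE from edgeR (x axis) for the 32 tested genes (y axis) at day 7 (left) and day 14 (right), red where the unadjusted p was under 0.05. No fold is drawn where a group had 3 counts or fewer. Tgfb2, Bmp7, Bmpr1b, Nbl1 and Bambi lie below 0 in red at day 7, and no drawn gene is red at day 14.

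Among the ligands, Tgfb2 encodes the TGF-beta isoform best known in the eye. It had 82.0, 19.9 and 104 CPM in Olig1 day 7 libraries, against 157, 315 and 347 CPM in GFP day 7 libraries. Values at day 14 were 97.8, 106 and 95.5 CPM in Olig1 libraries, against 105, 140 and 61.0 CPM in GFP libraries. The groups did not overlap at day 7, where Olig1 was lower, and overlapped at day 14. The log2 fold change was -2.0 ± 0.58 (SE) at day 7 (edgeR, unadjusted p = 0.00336, adjusted p = 0.202) and 0.00 ± 0.56 at day 14 (adjusted p = 1.0). Without Olig1 day 7 replicate 2 the day 7 value was -1.70 (edgeR adjusted p = 0.543), and with DESeq2 it was -1.99 ± 0.57 (adjusted p = 0.014), a call. The difference between the days was 2.0 ± 0.80 on the log2 scale (edgeR adjusted p = 0.427). Tgfb2 shares 124 exon bases with Gm29491 on the opposite strand, which had 551 counts beside 32339 for Tgfb2 over all libraries.

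The remaining TGF-beta isoforms were low. Tgfb1 had counts in 2 libraries, GFP day 14 replicate 2 (0.942 CPM) and replicate 3 (0.0418 CPM), where microglial markers summed to 5097 and 6892 CPM. It was at 0 in the libraries with 939 and 1270 CPM of these markers. The part of microglial RNA in the Tgfb1 counts was not tested. The 0 counts in Olig1 day 14 libraries against 27 in GFP day 14 libraries make Tgfb1 at least 7.47-fold lower with Olig1, on a floor of 3 counts over the group. This bound rests on GFP day 14 replicate 2. Replicate 1 was at 0, and the level in replicate 3 was under the 0.125 CPM that a count of 0 allowed there. The groups thus overlapped, and Tgfb1 did not pass the filter for testing. Tgfb3 had 16.8, 3.83 and 10.3 CPM in Olig1 day 7 libraries, against 0, 0 and 2.87 CPM in GFP day 7 libraries, with no overlap. Its log2 fold change was 3.54 ± 2.89 (edgeR adjusted p = 0.646), and 3.77 without Olig1 day 7 replicate 2 (adjusted p = 0.836). At day 14 Tgfb3 had 0.0969, 0.0407 and 2.23 CPM in Olig1 libraries, against 0, 3.15 and 0 CPM in GFP libraries, which overlapped, with -0.32 ± 2.62 (edgeR adjusted p = 1.0).

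Bmp6 encodes a BMP ligand of the Bmp5/6/7 subgroup. It had 9.68, 1.91 and 0.270 CPM in Olig1 day 7 libraries and 0, 17.8 and 0.798 CPM in Olig1 day 14 libraries, against 0 in all 6 GFP libraries. Its counts thus came from 5 of the 6 Olig1 libraries, mostly from replicate 1 at day 7 and replicate 2 at day 14. Bmp6 was at least 81.3-fold higher with Olig1 at day 7 (206 counts against 0) and at least 181-fold higher at day 14 (451 against 0), with the floor of 3 counts taken over the group, and such bounds cover counting error only. edgeR gave unadjusted p = 0.0235 at day 7, 0.017 at day 14 and 0.00262 over both days (adjusted p = 0.289, 0.438 and 0.111). Over both days Bmp6 was called by DESeq2 (adjusted p = 0.00088) and by edgeR with no filter on low counts (adjusted p = 0.0358). With Olig1 day 7 replicates 1 and 2 summed, the edgeR adjusted p over both days was 0.213. Bmp6 shares 224 exon bases with Txndc5 on the opposite strand, which had 3254 counts beside 657 for Bmp6. Since the strand setting of the counting is not given, reads in that stretch cannot be assigned with certainty.

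Bmp7, a close relative of Bmp6, had 0.489, 0.0798 and 2.501 CPM in Olig1 day 7 libraries, against 33.6, 53.8 and 1.35 CPM in GFP day 7 libraries. The day 14 levels were 0, 38.8 and 1.28 CPM in Olig1 libraries, against 5.72, 11.1 and 6.72 CPM in GFP libraries. The groups overlapped at both days. Its log2 fold change at day 7 was -4.97 ± 2.25 (edgeR unadjusted p = 0.0428, adjusted p = 0.344), and -4.49 without Olig1 day 7 replicate 2 (adjusted p = 0.669).

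Bmp4, the dorsal BMP of the developing retina, had 0.163, 0.239 and 0 CPM in Olig1 day 7 libraries, against 0, 63.0 and 0.819 CPM in GFP day 7 libraries. Its day 14 values were 0, 0 and 0.319 CPM in Olig1 libraries, against 0, 0 and 1.38 CPM in GFP libraries. A single library, GFP day 7 replicate 2, held nearly all of its counts. Over both days the log2 fold change was -4.75 ± 2.23 (edgeR unadjusted p = 0.0499, adjusted p = 0.336), and over the alternatives it ran from -6.88 to -1.39, with -5.35 without Olig1 day 7 replicate 2 (adjusted p = 0.449). Bmp2, likewise a BMP ligand, exceeded 10 CPM in 3 libraries, each of another group: it reached 48.0 CPM with Olig1 at day 14, and 43.2 and 13.4 CPM with GFP at day 7 and day 14. It was at 0 in 4 libraries.

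Of the activin subunits, Inhba, the beta A chain, had 7.41, 0.530 and 0.745 CPM in Olig1 day 14 libraries, against 28.9, 12.8 and 22.1 CPM in GFP day 14 libraries, with no overlap. The log2 fold change was -2.93 ± 1.48 (edgeR adjusted p = 0.526). At day 7 Inhba had 12.5, 2.71 and 8.18 CPM in Olig1 libraries and 38.1, 8.98 and 10.3 CPM in GFP libraries, which overlapped. Inhbb, the beta B chain, had 0.109, 0 and 0 CPM in Olig1 day 7 libraries, against 0.106, 4.65 and 0.995 CPM in GFP day 7 libraries, which overlapped, and it reached at most 15.0 CPM (GFP day 14 replicate 1). Gdf11, a ligand of the activin receptors, had a count in every library and ranged from 0.217 to 15.9 CPM.

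**Figure D4:**
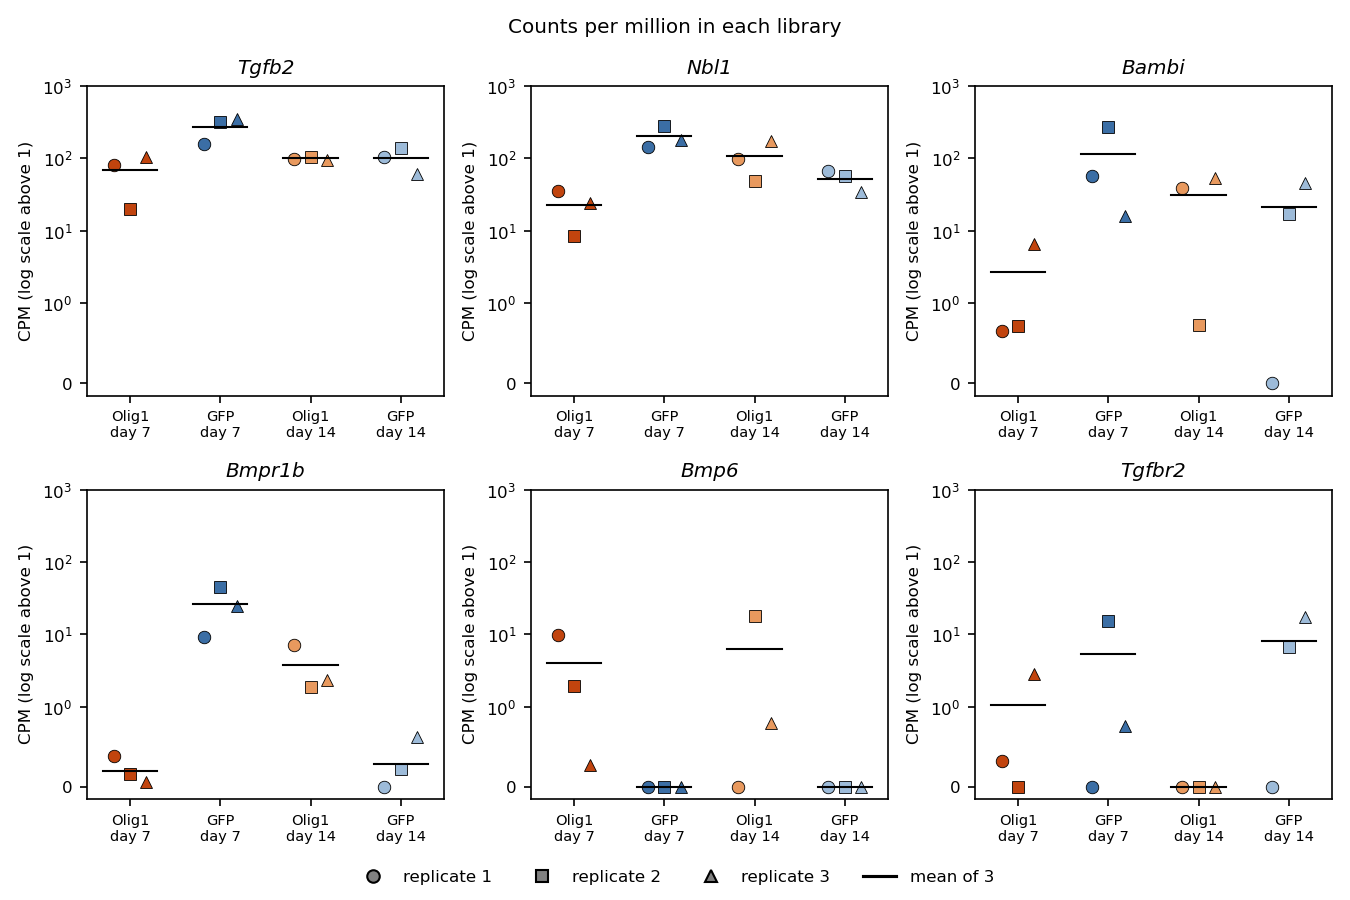
CPM in each library (y axis, logarithmic above 1 CPM and linear below) of 6 genes by group (x axis), with one symbol per replicate and a line at the mean of 3. Tgfb2, Nbl1, Bambi and Bmpr1b are lower in all 3 Olig1 day 7 libraries than in all 3 GFP day 7 libraries, Bmp6 is at 0 in all 6 GFP libraries, and Tgfbr2 is at 0 in all 3 Olig1 day 14 libraries.

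Latent TGF-beta binding proteins hold TGF-beta in the extracellular matrix. Ltbp1 had 0.326, 0.798 and 2.84 CPM in Olig1 day 7 libraries, against 0, 36.1 and 3.57 CPM in GFP day 7 libraries. Day 14 levels were 0.388, 0.326 and 0 CPM in Olig1 libraries, against 6.16, 0.652 and 13.6 CPM in GFP libraries. The groups overlapped at day 7 and did not overlap at day 14. Over both days the log2 fold change was -4.18 ± 1.77 (edgeR unadjusted p = 0.0316, adjusted p = 0.275), and DESeq2 called it at -4.17 ± 1.37 (adjusted p = 0.0325). Without Olig1 day 7 replicate 2 it was -4.16 (edgeR adjusted p = 0.455). Ltbp3 had 43.6, 11.9 and 8.85 CPM in Olig1 day 7 libraries and 24.2, 27.7 and 27.7 CPM in GFP day 7 libraries. At day 14 it had 18.2, 34.7 and 14.0 CPM in Olig1 libraries and 0, 7.07 and 19.4 CPM in GFP libraries. Its groups overlapped at both days, and the log2 fold change was -0.21 ± 1.48 at day 7 (edgeR adjusted p = 0.982). Ltbp4 did not pass the filter: 111 of its 143 counts were in GFP day 7 replicate 2 (6.08 CPM).

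Among the type I receptors, Bmpr1b, which encodes the BMP receptor ALK6, showed opposite orders of the groups at the 2 days. At day 7 it had 0.381, 0.160 and 0.0676 CPM in Olig1 libraries, against 9.22, 44.9 and 24.6 CPM in GFP libraries. Values at day 14 were 7.17, 1.87 and 2.34 CPM in Olig1 libraries, against 0, 0.217 and 0.626 CPM in GFP libraries. All 3 Olig1 libraries were thus below all 3 GFP libraries at day 7 and above them at day 14. The log2 fold change was -6.87 ± 2.26 at day 7 (edgeR unadjusted p = 0.00808, adjusted p = 0.246) and 3.47 ± 1.93 at day 14 (adjusted p = 0.602). The difference between the days was 10.35 ± 2.96 on the log2 scale (edgeR unadjusted p = 0.00308, adjusted p = 0.341). DESeq2 called the day 7 contrast (adjusted p = 0.000126) and the difference between the days (adjusted p = 2.58e-05). With Olig1 day 7 replicates 1 and 2 summed, the edgeR adjusted p was 0.511 at day 7 and 0.535 for the difference between the days.

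Bmpr1a, which encodes the more widely expressed BMP receptor ALK3, had 24.9, 7.34 and 16.7 CPM in Olig1 day 7 libraries, against 89.6, 63.4 and 29.3 CPM in GFP day 7 libraries, with no overlap. The day 14 levels were 35.8, 14.5 and 27.6 CPM in Olig1 libraries, against 132, 8.04 and 23.8 CPM in GFP libraries, which overlapped. Over both days the log2 fold change was -1.40 ± 0.66 (edgeR unadjusted p = 0.0491, adjusted p = 0.334), and -1.30 without Olig1 day 7 replicate 2 (adjusted p = 0.495). Bmpr1a shares 290 exon bases with Gm17110 on the opposite strand (878 counts beside 9909). Tgfbr1, the TGF-beta receptor ALK5, had 7.28, 1.60 and 46.9 CPM in Olig1 day 7 libraries and 49.97, 31.3 and 27.0 CPM in GFP day 7 libraries. Its day 14 values were 25.8, 62.2 and 2.13 CPM in Olig1 libraries and 37.1, 57.7 and 59.4 CPM in GFP libraries. Its groups overlapped at both days, with log2 fold changes of -1.0 ± 1.13 and -0.83 ± 1.12 (edgeR adjusted p = 0.777 and 0.989). Acvr1 (ALK2) reached 29.3 CPM in Olig1 day 7 replicate 3 and was at 0 in 2 libraries, Acvr1b (ALK4) ranged from 0.160 to 23.3 CPM, and Acvrl1 (ALK1), the receptor of endothelial cells, had no count in any library.

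Of the type II receptors, Tgfbr2, without which TGF-beta cannot engage ALK5, had 0.326, 0 and 2.84 CPM in Olig1 day 7 libraries, against 0, 15.4 and 0.761 CPM in GFP day 7 libraries. Day 14 levels were 0 in all 3 Olig1 libraries, against 0, 6.70 and 17.5 CPM in GFP libraries. It was at least 167-fold lower with Olig1 at day 14 (0 counts against 605, with the floor over the group), yet GFP day 14 replicate 1 was also at 0. edgeR gave unadjusted p = 0.0183 (adjusted p = 0.438) at day 14, and a log2 fold change of -6.66 ± 2.39 over both days (adjusted p = 0.198, and 0.355 without Olig1 day 7 replicate 2). DESeq2 called both contrasts (adjusted p = 0.0197 and 0.0275). The value over both days averages in day 14, where the Olig1 group had 0 counts, so it is no bound. At day 7 alone it was -2.61 ± 2.82 (edgeR adjusted p = 0.765), and the groups overlapped at both days. The GFP day 14 libraries with Tgfbr2 were those with 5097 and 6892 CPM of microglial markers, against 25.1 CPM in the one at 0 and 3.06 to 12.1 CPM in the Olig1 day 14 libraries. Without the 4 libraries rich in these markers, no day 14 library had a Tgfbr2 count. The library highest at day 7, GFP day 7 replicate 2, had 27.0 CPM of microglial markers, and the part of microglial RNA in the Tgfbr2 result was not tested.

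Bmpr2, the BMP type II receptor, had 22.02, 160.0 and 35.8 CPM in Olig1 day 7 libraries and 28.6, 13.6 and 67.7 CPM in GFP day 7 libraries. At day 14 it had 54.1, 135 and 21.8 CPM in Olig1 libraries and 28.0, 49.8 and 38.2 CPM in GFP libraries. The groups overlapped at both days. At day 7 the log2 fold change was 1.62 ± 0.98 (edgeR adjusted p = 0.490), and it was -0.40 without Olig1 day 7 replicate 2, the library with the highest value. Acvr2a, a type II receptor of activins and BMPs, had 50.1, 13.4 and 11.69 CPM in Olig1 day 7 libraries and 17.0, 0.110 and 0.585 CPM in GFP day 7 libraries. Values at day 14 were 7.85, 7.37 and 5.16 CPM in Olig1 libraries and 23.6, 10.9 and 2.96 CPM in GFP libraries. These groups overlapped as well, with a log2 fold change of 2.31 ± 1.65 at day 7 (edgeR adjusted p = 0.582), and Acvr2a shares 446 exon bases with Orc4 on the opposite strand, which had 11001 counts beside 3007. Acvr2b ranged from 0 to 25.6 CPM, and the co-receptor Tgfbr3 (betaglycan) from 0 to 57.9 CPM, highest in Olig1 day 7 replicate 1.

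The receptor-regulated Smads varied widely within groups. Smad2 had 85.8, 19.0 and 10.2 CPM in Olig1 day 7 libraries and 7.25, 6.84 and 41.8 CPM in GFP day 7 libraries. The day 14 levels were 3.83, 56.5 and 11.2 CPM in Olig1 libraries and 21.6, 42.2 and 9.35 CPM in GFP libraries, so the groups overlapped at both days. Its log2 fold change was 1.18 ± 1.19 at day 7 (edgeR adjusted p = 0.740) and 0.06 ± 1.18 at day 14 (adjusted p = 1.0). Smad5 had 0.0544, 0.160 and 27.5 CPM in Olig1 day 7 libraries and 16.7, 23.4 and 12.4 CPM in GFP day 7 libraries. Its day 14 values were 19.8, 0.244 and 18.8 CPM in Olig1 libraries and 0, 3.12 and 15.1 CPM in GFP libraries. Its log2 fold changes, -1.04 ± 2.17 and 0.77 ± 2.16, were smaller than their errors. Smad1 ranged from 0 to 26.0 CPM, Smad3 from 0.435 to 28.5 CPM and the common partner Smad4 from 0 to 27.0 CPM, each with unadjusted p over 0.05 in both comparisons of Olig1 with GFP. Smad9 had 62 counts in 4 libraries, all at day 7, and was not tested.

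Among the inhibitors inside the cell, Smad6, which blocks BMP receptor signalling, was at 0 in all 3 Olig1 day 7 libraries, against 0.426, 1.86 and 0 CPM in GFP day 7 libraries. Day 14 levels were 6.40, 0 and 0.213 CPM in Olig1 libraries, against 0, 4.46 and 0.0835 CPM in GFP libraries. At day 7 Smad6 was at least 11.8-fold lower with Olig1 on the floor of 3 counts over the group (0 counts against 42), and the groups overlapped at both days. Smad7, which blocks both branches, ranged from 0 to 12.8 CPM. Skil (SnoN), a co-repressor that binds Smads, had 13.5, 5.27 and 18.9 CPM in Olig1 day 7 libraries and 3.14, 21.5 and 24.99 CPM in GFP day 7 libraries. At day 14 it had 44.0, 15.4 and 108 CPM in Olig1 libraries and 77.0, 118 and 83.5 CPM in GFP libraries. Olig1 and GFP overlapped for Skil at both days, with log2 fold changes of -0.38 ± 0.86 and -0.78 ± 0.87 (edgeR adjusted p = 0.919 and 0.960). Ski, its relative, had 18.8, 4.07 and 10.1 CPM in Olig1 day 7 libraries and 3.57, 0.0547 and 11.8 CPM in GFP day 7 libraries. At day 14 Ski had 1.84, 16.4 and 1.86 CPM in Olig1 libraries and 0.0392, 7.10 and 0.125 CPM in GFP libraries, which overlapped as at day 7 (edgeR adjusted p = 0.879 at day 7 and 0.987 at day 14).

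Of the antagonists, Nbl1 (DAN), the founding member of the DAN family of secreted BMP antagonists, gave the smallest p of the 40 genes at day 7. It had 35.8, 8.54 and 24.3 CPM in Olig1 day 7 libraries, against 144, 283 and 180 CPM in GFP day 7 libraries. Values at day 14 were 98.2, 48.3 and 173 CPM in Olig1 libraries, against 67.8, 56.2 and 33.9 CPM in GFP libraries. Every Olig1 library was below every GFP library at day 7, and the groups overlapped at day 14. The log2 fold change was -3.14 ± 0.68 at day 7 (edgeR unadjusted p = 0.000283, adjusted p = 0.0766) and 1.03 ± 0.63 at day 14 (adjusted p = 0.678). Nbl1 was called at day 7 by DESeq2 (-3.12 ± 0.65, adjusted p = 0.000119) and by edgeR with no filter on low counts (adjusted p = 0.0225). Without Olig1 day 7 replicate 2 it was -2.92 (edgeR adjusted p = 0.214), and with replicates 1 and 2 summed -3.10 (adjusted p = 0.146). The difference between the days was 4.18 ± 0.92 (edgeR unadjusted p = 0.000342, adjusted p = 0.341), which DESeq2 called (adjusted p = 0.000564).

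Bambi, a pseudoreceptor that resembles type I receptors but lacks a kinase domain, had 0.652, 0.718 and 6.62 CPM in Olig1 day 7 libraries, against 56.8, 274 and 15.9 CPM in GFP day 7 libraries. The day 14 levels were 38.7, 0.733 and 54.3 CPM in Olig1 libraries, against 0, 17.1 and 45.7 CPM in GFP libraries. The groups did not overlap at day 7 and overlapped widely at day 14. At day 7 the log2 fold change was -5.55 ± 2.13 (edgeR unadjusted p = 0.0212, adjusted p = 0.286), -5.23 without Olig1 day 7 replicate 2 (adjusted p = 0.648), and -5.56 ± 1.69 with DESeq2 (adjusted p = 0.0216). The difference between the days was 5.85 ± 2.67 on the log2 scale (edgeR adjusted p = 0.494), and it was called without the 4 libraries rich in microglial markers (edgeR adjusted p = 0.0309), where the lone GFP day 14 library left was at 0. The classical extracellular BMP and activin antagonists were close to absent: Nog (noggin) had 0 counts, Chrd (chordin) 22 counts in 3 libraries, Grem1 (gremlin) 34 counts in 2 libraries, both with Olig1, and Fst (follistatin) 296 counts in 3 libraries, with 11.1 CPM in GFP day 14 replicate 1.

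The day 7 groups that differed in Tgfb2, Nbl1, Bambi, Bmpr1b and Bmpr1a differed in cell type markers in the same libraries. All 15 rod markers had a negative log2 fold change of Olig1 over GFP at day 7, 3 of them called by edgeR, and 12 of the 15 Müller glia markers were negative, with 0 called. Of the 14 tested ganglion cell markers, 12 were positive, with 0 called. Bipolar cell markers were negative in 13 of 14, with Trpm1 called, cone markers were negative in 8 of 9, with 0 called, and amacrine cell markers were positive in 10 of 11, with Gad1 and C1ql2 called. The 9 cone markers summed to 27.1 to 109 CPM in Olig1 day 7 libraries and to 1414 to 1949 CPM in GFP day 7 libraries, and the 12 amacrine cell markers to 1428 to 3751 CPM and to 410 to 776 CPM in the same order of groups. The 7 astrocyte markers summed to 29.4 to 44.3 CPM in Olig1 day 7 libraries and to 86.4 to 378 CPM in GFP day 7 libraries, with Pax2 at 0 in the Olig1 group and Fgfr3 at 0 in the GFP group. The 7 pericyte markers summed to 4.13 to 70.3 CPM and to 151 to 533 CPM in the same order of groups, with Kcnj8 and Anpep at 0 in the Olig1 group and Cspg4 and Abcc9 at 0 in the GFP group. At day 14 all 15 rod markers and 8 of 9 cone markers were also negative, with 0 called. Bipolar cell markers were then negative in 13 of 14, with Trpm1 called. Amacrine cell markers were positive in 10 of 11, with Gad1 and C1ql2 called, and ganglion cell markers in 11 of 14, with 0 called. Müller glia markers differed from day 7, with 4 negative and 11 positive, and astrocyte markers were 3 negative and 3 positive. The part of these markers in the values of either day was not tested.

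A further question was how the pathway differed between the days under each virus. Nbl1 and Bmpr1b were higher in every day 14 library than in every day 7 library with Olig1, and lower in every one with GFP. In edgeR 0 of the 32 genes were called for day 14 over day 7 with Olig1 (0.0334% of all genes) and 0 with GFP (0.0% of all genes). DESeq2 called 1 with Olig1 (4.53% of all genes), Nbl1, and 1 with GFP (4.63% of all genes), Bmpr1b. At an unadjusted p under 0.05, 4 of the 32 differed with Olig1, all higher at day 14 (11.8% of all genes, 4.26% higher), and 3 with GFP, 1 higher and 2 lower (10.3% of all genes, 4.5% higher and 5.77% lower). All 3 libraries of one day lay above all 3 of the other for 4 of the 32 genes with Olig1, 2 higher and 2 lower at day 14 (16.1% of all genes, 5.55% higher and 10.6% lower), and for 6 with GFP, 1 higher and 5 lower (14.4% of all genes, 3.96% higher and 10.5% lower). Skil had a positive value under both viruses, with a log2 fold change of 2.36 ± 0.91 with Olig1 (edgeR unadjusted p = 0.0193, adjusted p = 0.373) and 2.76 ± 0.92 with GFP (unadjusted p = 0.00866, adjusted p = 0.442). With GFP the 3 day 14 libraries lay above all 3 day 7 libraries, and with Olig1 the days overlapped. Nbl1 had opposite signs, 2.45 ± 0.66 with Olig1 (edgeR adjusted p = 0.371) and -1.73 ± 0.64 with GFP (adjusted p = 0.442). Bmpr1b likewise stood at 4.29 ± 2.01 with Olig1 (edgeR adjusted p = 0.422) and -6.06 ± 2.17 with GFP (adjusted p = 0.442). Smad6 was at least 32.4-fold higher at day 14 with Olig1 (136 counts against 0), mostly from replicate 1. Without Olig1 day 7 replicate 2, the values with Olig1 were 2.05 for Skil (edgeR adjusted p = 0.739), 2.10 for Nbl1 (adjusted p = 0.739) and 4.35 for Bmpr1b (adjusted p = 0.765), and the adjusted p of Smad6 was 0.747. These contrasts use the same libraries as the comparisons of Olig1 with GFP, so their values are not independent of those above. For the difference between the days in Olig1 over GFP, edgeR called 0 of the 32 genes (0.0% of all genes) and DESeq2 2, Nbl1 and Bmpr1b (3.81% of all genes). At an unadjusted p under 0.05 it was 4 in edgeR, Nbl1, Bmpr1b, Tgfb2 and Bambi, all with a more positive value at day 14 (9.9% of all genes, 4.57% in that direction).

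Beyond the 40 genes, 67 further genes of the pathway were listed, 38 passed the filter, and edgeR called 0 in any of the 6 contrasts. At an unadjusted p under 0.05, 6 of the 38 differed at day 7, 3 in each direction, beside 13.9% of all genes, and 3 at day 14, 2 higher and 1 lower with Olig1, beside 10.4% of all genes. Ccn2 (CTGF), a matricellular protein induced by TGF-beta and by YAP, had 2.66, 2.15 and 8.04 CPM in Olig1 day 7 libraries, against 164, 343 and 229 CPM in GFP day 7 libraries. Its day 14 values were 43.4, 9.61 and 43.8 CPM in Olig1 libraries, against 23.0, 0.145 and 19.7 CPM in GFP libraries. Ccn2 was thus lower in every Olig1 library at day 7 and overlapped at day 14, with log2 fold changes of -5.79 ± 1.33 (edgeR unadjusted p = 0.000532, adjusted p = 0.0975) and 1.07 ± 1.10 (adjusted p = 0.947). Without Olig1 day 7 replicate 2 the day 7 value was -5.68 (edgeR adjusted p = 0.354). It shares 665 exon bases with Gm15270 on the opposite strand, which had 15 counts. The other tested TGF-beta targets overlapped between the viruses at day 7. Their edgeR log2 fold changes were 2.48 ± 1.62 for Junb, 3.29 ± 2.27 for Col1a1, 1.01 ± 1.71 for Fn1, -0.09 ± 1.47 for Ccn1 and -0.22 ± 0.96 for Pmepa1, with Ltbp2 given below. Among Olig1 day 7 libraries Junb was highest in replicate 1 (1199 CPM), and Col1a1 and Fn1 in replicate 2 (39.6 and 106 CPM).

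The BMP targets Id4 and Atoh8, both of the HLH family, had higher levels in Olig1 libraries, though neither passed the adjusted threshold. Id4 had 127, 31.9 and 33.5 CPM in Olig1 day 7 libraries, against 2.82, 27.8 and 1.64 CPM in GFP day 7 libraries, and 16.04, 3.18 and 5.05 CPM in Olig1 day 14 libraries, against 0.353, 0 and 0 CPM in GFP day 14 libraries. The groups did not overlap at either day, and over both days the log2 fold change was 4.34 ± 1.20 (edgeR unadjusted p = 0.00246, adjusted p = 0.109), and 4.43 without Olig1 day 7 replicate 2 (adjusted p = 0.23). Atoh8 had 10.6, 2.63 and 0.135 CPM in Olig1 day 7 libraries and 6.20, 12.01 and 0.106 CPM in Olig1 day 14 libraries, against 0 in all 6 GFP libraries. It was at least 261-fold higher with Olig1 over both days, with the floor of 3 counts over the 6 libraries (655 counts against 0, edgeR adjusted p = 0.0938, and 0.206 without Olig1 day 7 replicate 2). Id1 and Id3, the most used BMP readouts, are given here outside the naming rule: Id1 had 0.272, 0.0798 and 6.89 CPM in Olig1 day 7 libraries against 15.2, 0.657 and 14.9 CPM in GFP day 7 libraries. Id1 at day 14 had 27.4, 17.4 and 0.479 CPM in Olig1 libraries against 27.4, 0.0725 and 0 CPM in GFP libraries. Id3 ranged from 32.8 to 645 CPM over the 12 libraries, and averaged 89.6 CPM in Olig1 and 320 CPM in GFP libraries at day 7. The edgeR log2 fold changes of Id1 and Id3 were -2.06 ± 2.35 and -1.88 ± 0.89 at day 7, and 0.93 ± 2.28 and 0.81 ± 0.87 at day 14. Id2, also outside the rule, had 27.0, 936 and 49.0 CPM in Olig1 day 7 libraries against 28.0, 35.5 and 37.8 CPM in GFP day 7 libraries (4.02 ± 1.23, edgeR adjusted p = 0.22). Id1, Id2 and Id3 overlapped between the viruses at both days.

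**Figure D5:**
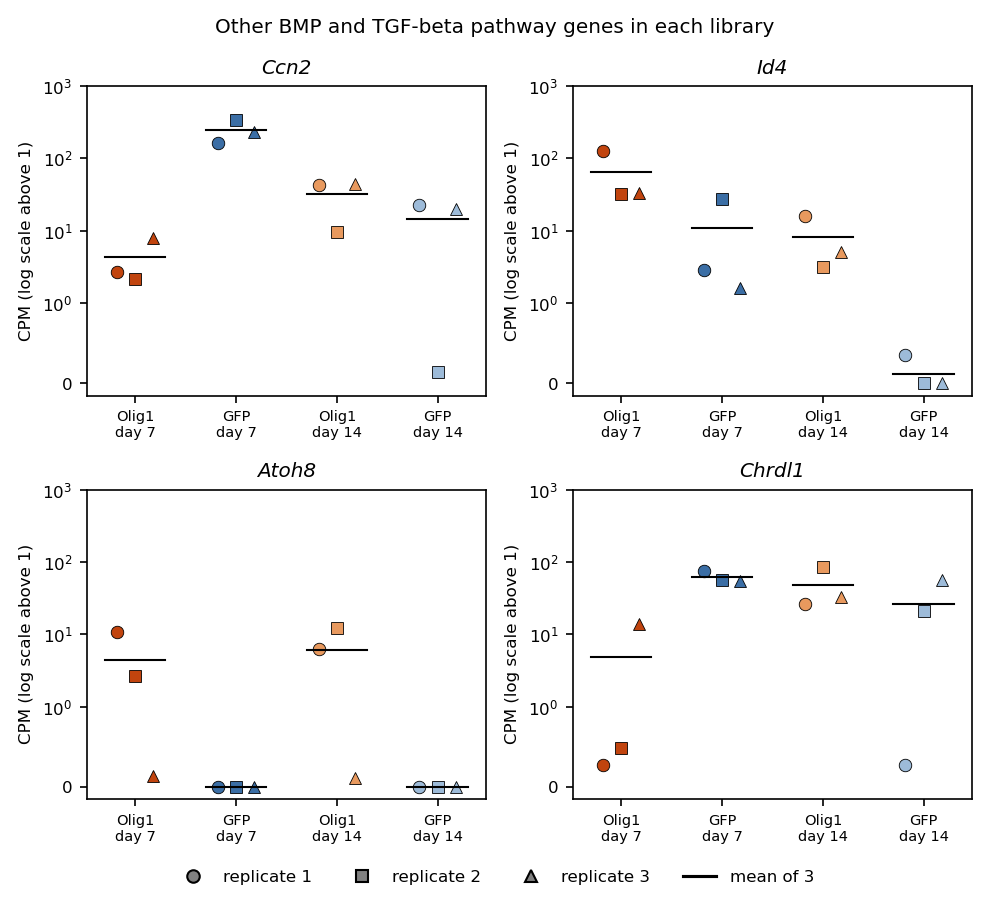
CPM in each library (y axis, logarithmic above 1 CPM and linear below) of Ccn2, Id4, Atoh8 and Chrdl1 by group (x axis), with one symbol per replicate and a line at the mean of 3. Ccn2 and Chrdl1 are lower in all 3 Olig1 day 7 libraries than in all 3 GFP day 7 libraries, Id4 is higher with Olig1 at both days, and Atoh8 is at 0 in all 6 GFP libraries.

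Chrdl1, a chordin-like BMP antagonist, had 0.272, 0.479 and 13.7 CPM in Olig1 day 7 libraries, against 75.3, 56.3 and 54.5 CPM in GFP day 7 libraries, with no overlap. Day 14 levels were 26.5, 83.8 and 32.6 CPM in Olig1 libraries, against 0.274, 21.2 and 56.4 CPM in GFP libraries. Its log2 fold change at day 7 was -3.72 ± 1.56 (edgeR unadjusted p = 0.0299, adjusted p = 0.308), and -3.24 without Olig1 day 7 replicate 2 (adjusted p = 0.648). Dcn (decorin), which binds TGF-beta, stood at 1122 CPM in Olig1 day 7 replicate 2 and 29.4 CPM in replicate 3, with at most 1.63 CPM elsewhere, and the groups overlapped (edgeR adjusted p = 0.244 at day 7, and 0.648 without Olig1 day 7 replicate 2). Bmp3, an atypical BMP that opposes other BMPs, had 0.163, 0.239 and 0.0676 CPM in Olig1 day 7 libraries, against 0, 3.34 and 39.2 CPM in GFP day 7 libraries, and averaged 11.3 CPM in Olig1 and 30.2 CPM in GFP libraries at day 14. Over both days its log2 fold change was -3.70 ± 1.42 (edgeR adjusted p = 0.224), and -4.10 without Olig1 day 7 replicate 2 (adjusted p = 0.333). Itgav, the alpha chain of the integrins that release TGF-beta from its latent form, averaged 23.7 CPM in Olig1 and 84.2 CPM in GFP libraries over both days, with -1.70 ± 0.68 (edgeR adjusted p = 0.247, and 0.389 without Olig1 day 7 replicate 2), and 271 CPM in GFP day 14 replicate 1. The BMP co-receptor Rgmb had 44.3, 11.1 and 29.7 CPM in Olig1 day 7 libraries, against 6.82, 0.712 and 4.16 CPM in GFP day 7 libraries, with no overlap (edgeR log2 fold change 3.0 ± 1.44, adjusted p = 0.368, and 3.22 without Olig1 day 7 replicate 2, adjusted p = 0.648). At day 14 Rgmb averaged 15.4 CPM in Olig1 and 15.3 CPM in GFP libraries, which overlapped. Inha ranged from 0 to 14.4 CPM over the 12 libraries, Ltbp2 from 0 to 38.5 CPM, Neo1 from 4.82 to 94.3 CPM and Fbn1 from 0 to 60.7 CPM. Usp15, a deubiquitinase of the pathway, ranged from 15.6 to 63.9 CPM, and Ppm1a, a Smad phosphatase, from 30.1 to 161 CPM. These 6 genes had unadjusted p over 0.05 at each day and over both days. Of them, Usp15 was higher in every Olig1 library than in every GFP library at day 14 (edgeR log2 fold change 0.65 ± 0.68, adjusted p = 0.95). Ltbp2 at day 7 had 3 counts with Olig1 against 723 with GFP (edgeR unadjusted p = 0.0501, adjusted p = 0.359). Its groups overlapped, and GFP day 7 replicate 2 held most of those counts (38.5 CPM, against 0 and 1.11 CPM in replicates 1 and 3).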

How the data were processed

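The authors deposited raw read counts for Ensembl genes, made with FastQC, HISAT2 and HTSeq on mm10, per the submitters' processing notes. The sources used here state no versions, annotation or strandedness. Per the labels' protocols, cDNA came from the SMART-Seq HT kit with 20 PCR cycles, without molecular identifiers, so bounds and intervals cover counting error only. The files of 4 samples end early, and the series table, in which 0 genes differed from them, was used. Symbols came from GENCODE M21 (GRCm38), which matched 54165 of 54232 genes. CPM is counts per 1000000 of the library total.

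Tests used edgeR 4.0.16 (robust quasi-likelihood fit, TMM factors, and filterByExpr at 10 counts, by group) under R 4.3.3, in 1 fit of 12 libraries on 4 groups with 6 contrasts, after the script was tested on simulated data. The SE of an edgeR log2 fold change was derived from the test, as the absolute log2 fold change over the square root of the F statistic. The common biological coefficient of variation was 1.351. The simulated data had a lower spread, so that run does not show what the test could detect here. The labels speak of batches without assigning libraries, so batch could not enter. Alternatives were DESeq2 1.42.0 size factors and Wald test, 2 other filters, each library left out, and a replicate block, and 2 settings were added after seeing the data. Python 3.11.15 with pandas 2.3.3 made the tables, and matplotlib 3.10.9 the plots.

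The 40 genes, the lists and the tests were chosen with earlier results of these data known. Genes named with all values had unadjusted p under 0.05 in a contrast or were the 2 most abundant of their role. Of the further pathway genes, up to 2 per class with the smallest p over both days were named. Others, such as Tgfb3, Inhba, Id1, Id2, Id3, Junb, Col1a1, Fn1, Ccn1 and Pmepa1, were named after their values were seen.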

Additional observations from a re-analysis of the deposited data

Results flagged for a closer look

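By CPM, all 3 Olig1 libraries lay below all 3 GFP libraries for Bmpr1b at day 7 and above them at day 14. Groups did not overlap for 18.4% of all genes tested at day 7 and for 11.9% at day 14. The share of all genes with opposite orders at the 2 days was not computed. The difference between the days in Olig1 over GFP was 10.35 ± 2.96 on the log2 scale (edgeR, unadjusted p = 0.00308, adjusted p = 0.341). Olig1 day 7 libraries had 0.381, 0.160 and 0.0676 CPM and GFP day 14 libraries had 0, 0.217 and 0.626 CPM, which are few counts. Over 19 alternatives the difference ran from 9.51 to 15.85, and 1 of them, DESeq2, gave an adjusted p under 0.05. The alternatives include the fit without the microglia-rich libraries. Bmpr1b was at 0 CPM in GFP day 14 replicate 1, the GFP day 14 library left there, so a value from that fit is no bound.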

How the results depend on the processing

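In edgeR, 0 of the 40 genes were called in any of the 6 contrasts with DESeq2 size factors, with a stricter filter (at least 10 counts in at least 6 libraries), with a replicate block, with Olig1 day 7 replicates 1 and 2 summed, or with any 1 library left out (range 0 to 0 for each contrast). Exceptions came from other settings. The summed libraries and the removal of microglia-rich libraries were settings chosen after seeing the data. The DESeq2 Wald test called 4 (day 7), 2 (day 14), 3 (both days), 2 (day difference), 1 (day 14 over day 7 with Olig1) and 1 (with GFP), and with no filter edgeR called 1 at day 7 (Nbl1) and 1 over both days (Bmp6). Without the 4 libraries rich in microglial markers, 1 was called in the day difference (Bambi, 20.01, adjusted p = 0.0309), a fit in which Bambi was at 0 in the remaining GFP day 14 library, so the value is no bound. The causes were not tested.

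Counts over all genes moved more. In the same order of contrasts, the edgeR fit reported above called 34, 6, 98, 0, 5 and 0 genes, DESeq2 called 930, 743, 1136, 526, 626 and 640, and edgeR with no filter called 218, 23, 401, 40, 59 and 13. The stricter filter gave 2 at day 14 and 2 for day 14 over day 7 with Olig1, and DESeq2 size factors gave 0 for the same contrast. With 1 library left out, the ranges were 1 to 81, 0 to 6, 26 to 133, 0 to 1, 0 to 10 and 0 to 2. Summing Olig1 day 7 replicates 1 and 2 gave 10 at day 7, 36 over both days and 1 for day 14 over day 7 with GFP. Without the microglia-rich libraries the counts were 176 (day 14), 349 (both days), 127 (day difference), 15 (with Olig1) and 145 (with GFP).

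Among the named genes and contrasts, the sign turned for Ltbp3 and Bmpr2. Ltbp3 at day 7 was 0.20 without Olig1 day 7 replicate 3 (-0.91 to 0.20 over the libraries left out) and 0.18 without the microglia-rich libraries, Bmpr2 at day 7 was -0.40 without Olig1 day 7 replicate 2 (-0.40 to 2.37 over the libraries left out), while Tgfbr2 at day 14 had no counts left without the microglia-rich libraries (adjusted p = 1.0). The median of the 32 genes was -2.43 at day 7 and 3.27 at day 14 without the microglia-rich libraries, where the median of all genes was 0.0 and 1.53 and GFP day 14 was 1 library. Leaving out Olig1 day 7 replicate 3, alone or with the other microglia-rich libraries, keeps replicates 1 and 2 of that group, which did not look independent.

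The replicate block gave 1 gene at day 14, 64 over both days and 1 in the day difference, and changed no call among the 40 genes. Same-numbered libraries of different groups did not deviate together (18 pairs, r from -0.0657 to 0.0441, 0 over 0.1), so the numbers are not taken as pairs. The groups had 3 libraries each and the common coefficient of variation was 1.351, and the smallest difference that could be detected was not computed.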
